A study of Mus musculus with 53 samples.

Results

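The genes described here are the mouse zinc finger genes whose symbol is Zfp9 followed by 2 further digits. The rule found 64 of them, Zfp930 to Zfp995, among 43412 genes listed in each of the RNA tables, and 309 other genes carry a symbol of Zfp and digits. The cells were mouse embryonic fibroblasts (MEFs), either Anp32e knockout (KO) or wild type (WT), and all 22 RNA-seq libraries were used. The first table holds 3 KO libraries with decitabine (DAC), 2 KO with its solvent DMSO, 3 WT with DAC and 2 WT with DMSO, in FPKM (fragments per kilobase of gene, scaled to library size). The second holds 3 libraries each of KO with an siRNA against H2A.Z, KO with the control siRNA labelled NT, WT with the H2A.Z siRNA and WT with NT, in RPKM. The labels give no dose, time, passage, knockout allele or number of animals or clones behind the cells, so the groups may each stem from a single line. Replicates are labelled biological, apart from those of KO with H2A.Z siRNA, which are labelled as replicates only, and p-values measure the spread between these libraries.

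Most mouse genes of this kind encode proteins with a tandem array of C2H2 zinc fingers, which read DNA, behind a KRAB domain, which recruits the corepressor TRIM28 (KAP1). TRIM28 brings in the histone methyltransferase SETDB1, and the H3K9me3 that follows silences transposons such as the IAP retrovirus-like elements. The genes lie in clusters of related copies that expand quickly in evolution, and deletion of the clusters on chromosomes 2 and 4 in mouse embryonic stem cells is known to reactivate transposons. ANP32E is the chaperone that removes the histone variant H2A.Z from chromatin, and decitabine is a cytidine analog that traps DNA methyltransferases and lowers DNA methylation.

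By the RefSeq annotation of GRCm38.p6 (mm10), 61 of the 64 genes had a position, on 12 chromosomes, and 40 lay in 5 clusters of at least 3 genes. The largest cluster, chr4:145510759-147849126, held 14 genes, among them Zfp991, Zfp992, Zfp993, Zfp982, Zfp984 and Zfp933. A cluster of 10 genes that includes Zfp948, Zfp983 and Zfp945 lay at chr17:21565816-22867309. A cluster of 9 genes with Zfp965 to Zfp968, Zfp970 to Zfp973 and Zfp931 lay at chr2:175372034-178078425. The smaller clusters were Zfp930, Zfp964 and Zfp963 on chromosome 8 and Zfp977, Zfp976, Zfp975 and Zfp936 on chromosome 7. Zfp993, annotated from 146512849 to 146991471, overlaps other genes of its cluster. Copies are close in sequence, and how reads that match more than 1 copy were counted is not given in the sources used here, so values of single genes within a cluster are uncertain. Zfp967 and Zfp969 had values within a ratio of 0.941 to 1.09 of each other in all 10 FPKM libraries and 0.975 to 1.04 in all 12 RPKM libraries, and may not be independent measurements.

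RefSeq promoter windows in GRCm38.p6 were matched for 54 of the 64 genes, and the 250 bases before the start used for each window were read. That start is not always the start of the gene as positioned. The Zfp948 window (chr17:21566728-21566977) lies inside its gene, positioned from 21565816 to 21589324. The Zfp964 window (chr8:69654306-69654555) runs past the start of its gene at 69654463. CCAAT, on either strand (CCAAT or ATTGG), was present in 41 of the 54 (75.9%), against 34.5% of all 27025 RefSeq promoters of that length. Promoters of neighbouring copies share descent, so these are not 54 independent sequences. The 7 promoters below were picked after the values were seen, for genes named below. Of these, 5 hold the motif: Zfp965, Zfp973 and Zfp964 were called lower with DAC in both genotypes, Zfp970 and Zfp938 in WT only. The windows of Zfp948 and Zfp993 do not hold it, but the bases before the Zfp948 start as positioned were not read. Zfp948 was called higher with DAC in both genotypes, but Zfp993 was called lower in KO (-1.54). Capitals mark CCAAT or its complement ATTGG. Each is given in the direction of its gene.
Zfp970 (chr2:177464492-177464741, plus strand): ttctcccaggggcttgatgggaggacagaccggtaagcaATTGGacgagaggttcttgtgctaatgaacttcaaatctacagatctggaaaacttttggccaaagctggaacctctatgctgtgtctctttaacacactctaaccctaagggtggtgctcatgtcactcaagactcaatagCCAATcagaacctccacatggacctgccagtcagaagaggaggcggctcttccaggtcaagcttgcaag
Zfp965 (chr2:175469775-175470024, plus strand): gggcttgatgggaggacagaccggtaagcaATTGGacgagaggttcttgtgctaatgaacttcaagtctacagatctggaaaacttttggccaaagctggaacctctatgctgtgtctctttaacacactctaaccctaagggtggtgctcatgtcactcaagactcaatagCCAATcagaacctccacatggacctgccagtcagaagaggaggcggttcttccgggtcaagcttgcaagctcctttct
Zfp973 (chr2:176670272-176670521, plus strand): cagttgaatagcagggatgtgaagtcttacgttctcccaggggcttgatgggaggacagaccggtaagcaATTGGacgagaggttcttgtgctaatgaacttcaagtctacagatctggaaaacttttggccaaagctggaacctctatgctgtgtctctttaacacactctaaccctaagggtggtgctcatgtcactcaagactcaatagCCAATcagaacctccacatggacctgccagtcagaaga
Zfp938 (chr10:82241281-82241530, minus strand): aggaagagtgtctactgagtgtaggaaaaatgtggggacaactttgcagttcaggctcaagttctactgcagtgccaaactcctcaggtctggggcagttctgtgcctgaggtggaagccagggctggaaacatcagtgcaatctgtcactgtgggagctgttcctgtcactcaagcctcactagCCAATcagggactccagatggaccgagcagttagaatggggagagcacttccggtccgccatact
Zfp964 (chr8:69654306-69654555, plus strand): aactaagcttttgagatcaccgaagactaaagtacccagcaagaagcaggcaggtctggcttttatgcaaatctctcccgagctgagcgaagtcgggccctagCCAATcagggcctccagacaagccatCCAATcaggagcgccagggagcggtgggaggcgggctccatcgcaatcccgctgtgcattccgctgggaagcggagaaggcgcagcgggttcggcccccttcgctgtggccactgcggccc
Zfp948 (chr17:21566728-21566977, plus strand): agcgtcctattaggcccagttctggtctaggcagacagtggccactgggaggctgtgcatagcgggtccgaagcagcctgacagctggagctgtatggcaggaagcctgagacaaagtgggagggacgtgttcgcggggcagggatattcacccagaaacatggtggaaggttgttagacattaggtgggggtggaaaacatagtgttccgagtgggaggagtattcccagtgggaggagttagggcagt
Zfp993 (chr4:146512599-146512848, plus strand): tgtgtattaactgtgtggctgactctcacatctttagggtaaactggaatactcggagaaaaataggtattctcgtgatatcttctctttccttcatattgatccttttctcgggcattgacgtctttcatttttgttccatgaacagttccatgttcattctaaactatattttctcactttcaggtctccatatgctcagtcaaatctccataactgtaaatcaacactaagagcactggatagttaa
The windows of Zfp965 and Zfp970 aligned with 91.9% identity, and each of the chromosome 2 promoters shown holds ATTGG far from the start and CCAAT nearer to it. Zfp938, on chromosome 10, holds CCAAT once and Zfp964, on chromosome 8, holds a pair. These letters do not occur in the Zfp948 and Zfp993 windows.

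**Figure D1:**
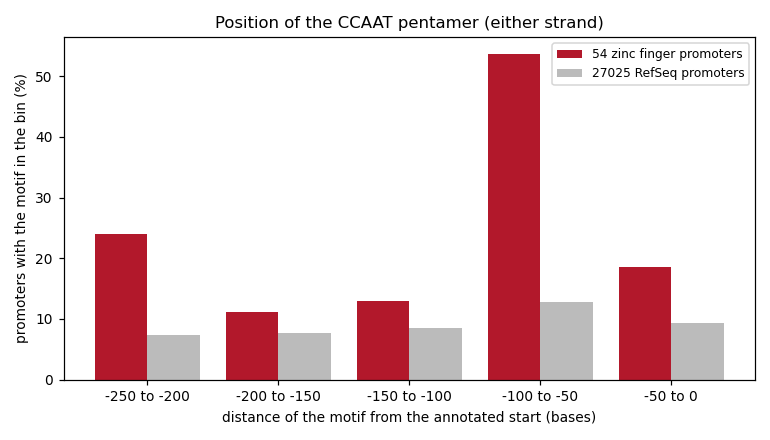
Share of promoters with CCAAT or ATTGG in each 50-base bin before the annotated start, for the zinc finger genes (red) and all RefSeq promoters (grey). The bin from -100 to -50 holds the motif in 29 of the 54 zinc finger promoters (53.7%), against 12.9% of all promoters.

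The motif stood most often between 100 and 50 bases before the start, where 53.7% of the zinc finger promoters and 12.9% of all promoters had it. TATAAA was found in 0 of the 54 windows and in 12.97% of all. GGGCGG was found in 31.5% of the zinc finger windows and 32.9% of all, and TGACGTCA in 1.85% and 1.62%. The median GC content was 49.8%, against 52.0% for all promoters. The median ratio of observed to expected CpG was 0.375, against 0.378 for all promoters, so the windows differed little from other promoters in this measure. Zfp970, Zfp973 and Zfp938 had 3 CpG each, Zfp965 had 4 and Zfp964 had 16.

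The genes were expressed at low levels. A gene was tested where its value reached 1 in at least 2 libraries of the FPKM table or 3 of the RPKM table, which kept 48 of the 64 in the first and 40 in the second, and all 40 are among the 48. In the FPKM table Zfp948 was highest, with a mean of 10.5 over all libraries (7.38 to 13.4), followed by Zfp984 (7.54), Zfp993 (6.86), Zfp935 (6.20) and Zfp969 (5.83), and the ranges of neighbours in this order overlapped. The order depends on the group, and in KO DMSO Zfp993 (mean 10.53) and Zfp984 (7.91) stood above Zfp948 (7.42). In the RPKM table the order began with Zfp948 (7.80, from 2.37 to 14.6), Zfp991 (7.03), Zfp993 (6.28), Zfp930 (5.82) and Zfp965 (5.10), but in KO NT Zfp965 (4.22) stood above Zfp948 (4.09). The lowest tested genes were Zfp982 (0.458), Zfp983 (0.802), Zfp951 (0.827), Zfp952 (0.916) and Zfp964 (1.02) in FPKM, and Zfp976 (0.667), Zfp949 (0.718), Zfp951 (0.800), Zfp975 (0.844) and Zfp950 (0.907) in RPKM. Zfp982, known from mouse embryonic stem cells as a gene that favours the stem cell state, was thus near the limit. Mean levels of the 40 genes in both tables had r = 0.71 across genes, which are not independent replicates.

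The 16 genes tested in neither table reached at most 0.947 FPKM (Zfp974) in the first. They were Zfp936, Zfp940, Zfp941, Zfp957, Zfp974, Zfp977 to Zfp981 and Zfp985 to Zfp990, 8 of which lie in the chromosome 4 cluster. The filter bears on some of the results. Zfp982 and Zfp983 passed in the FPKM table through KO libraries alone, that is, the KO libraries met the rule and the WT libraries by themselves did not, and Zfp951 and Zfp952 passed through WT libraries alone in the same sense. Among genes tested in RPKM, 9 passed through WT libraries alone, namely Zfp937, Zfp949 to Zfp952, Zfp956, Zfp975, Zfp976 and Zfp994. Of the 24 genes untested in the RPKM table, 15 had a lower mean in KO than in WT with NT siRNA and 8 a higher one, and 20 a lower and 4 a higher one with H2A.Z siRNA. Of the 16 untested in the FPKM table, 8 were higher and 8 lower in KO than in WT with DMSO, and 11 higher and 4 lower with DAC.

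Depth was 27503472 to 36910532 reads per FPKM library and 31928320 to 47172427 per RPKM library, recovered from the values. The knocked-out gene Anp32e was at 4.87 to 7.48 FPKM in KO libraries and 14.1 to 17.2 in WT libraries, and at 4.36 to 6.12 RPKM in KO and 16.9 to 21.4 in WT. H2afz, one of the genes for H2A.Z, was at 26.4 to 30.4 RPKM in KO and 16.7 to 17.5 in WT with H2A.Z siRNA, against 184 to 199 in KO and 199 to 203 in WT with NT. The Y-linked gene Ddx3y was at 3.02 to 6.73 in every KO library and at 0 to 0.0721 in every WT library, so the genotypes also differ by sex. The 10 fibroblast markers summed to 1794 to 1980 FPKM in KO DAC, 2024 to 2061 in KO DMSO, 2168 to 2301 in WT DAC and 3275 to 3397 in WT DMSO, and to 1135 to 1309 RPKM in KO and 1083 to 1149 in WT, with 9 or 10 of them at a mean of 1 or more in every group. The 9 markers of mesothelium summed to 111 to 129 FPKM in KO DAC, 925 to 953 in KO DMSO, 42.6 to 57.0 in WT DAC and 10.1 to 12.1 in WT DMSO, and to 150 to 189 RPKM in KO and 22.1 to 23.5 in WT. Of these, Lrrn4 and Gpm6a were at 0 in WT DMSO. In these bulk samples fewer cells of a type and less RNA per cell cannot be told apart.

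**Figure D2:**
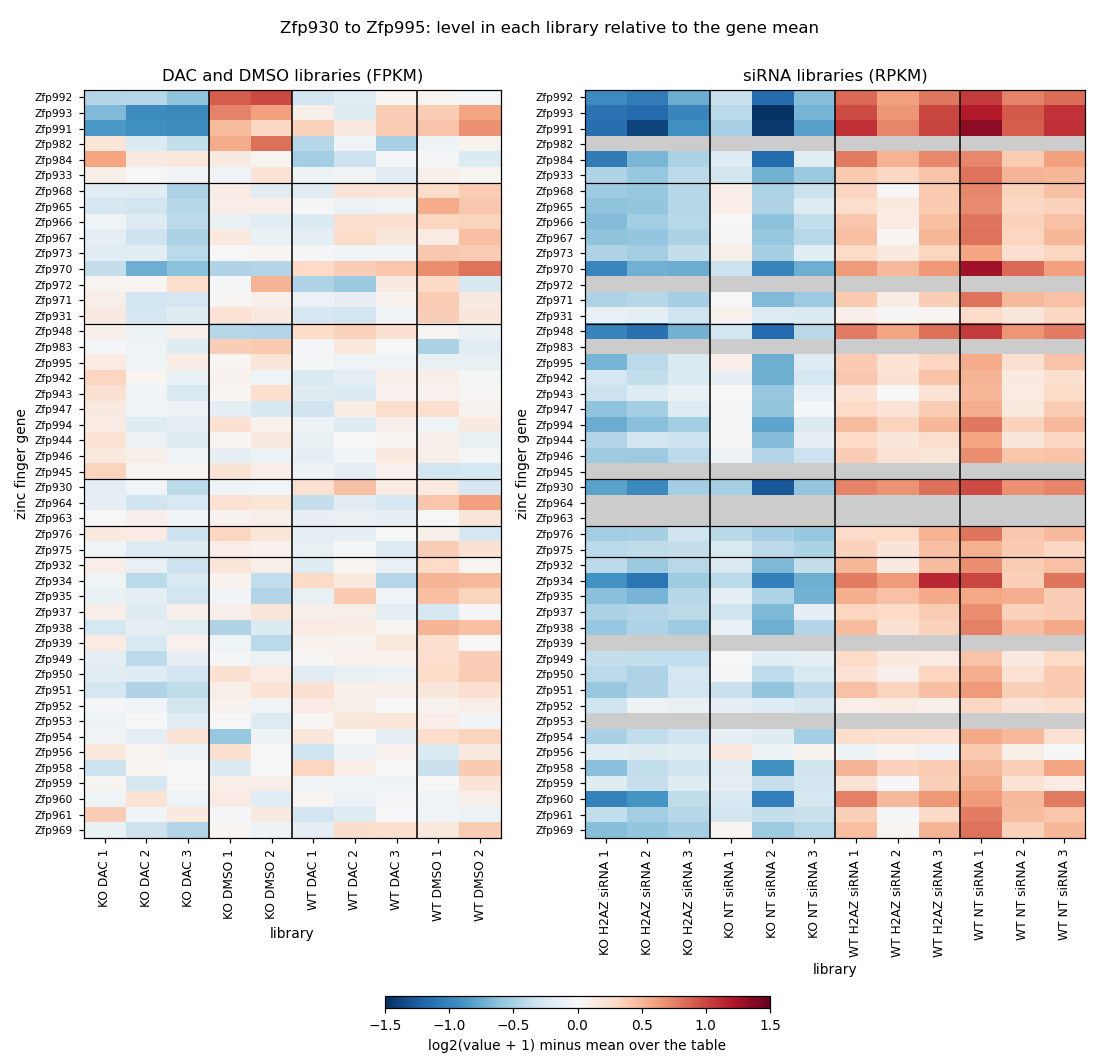
Level of each of the 48 tested genes (rows, grouped by cluster: chromosomes 4, 2, 17, 8 and 7, then the others) in each library (columns), as log2(value + 1) minus the gene's mean over the table. Grey rows were not tested in the siRNA table. The KO siRNA libraries are blue and the WT siRNA libraries red across nearly all rows. In the FPKM table the strongest blue stands in KO DAC at Zfp991 and Zfp993, and Zfp992 is red in KO DMSO.

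With the control siRNA, nearly every tested gene of the group was lower in KO than in WT. All 40 had a negative log2 fold change, and 39 of 40 were called lower and 0 higher by limma at an adjusted p below 0.05. Over all 12668 genes tested, 64.2% were called in this comparison, 23.7% higher and 40.4% lower, and among the other Zfp genes 121 of 205 were lower and 21 higher. The median log2 fold change was -0.87 for the group, -0.32 for the other Zfp genes and -0.10 for all genes. Zfp956, at -0.12 ± 0.10 (SE, limma adjusted p = 0.308), was the exception. The count is a description of a list chosen with these results known, and the 9 genes that passed the filter through WT libraries alone were favoured by it to be lower in KO. Of the 9 mesothelial markers 8 averaged at least 1 RPKM in KO NT and 3 in WT NT, with Wt1 at 0 in WT NT, and their sums were 167 to 189 in KO NT and 22.1 to 23.5 in WT NT. These markers and the sex of the cells move with the comparison in both siRNA groups, and their part in it was not tested.

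The largest falls were in the chromosome 4 cluster. Zfp991 had 3.47, 1.32 and 2.57 RPKM in KO NT libraries, against 14.9, 10.7 and 12.4 in WT NT libraries. No KO value came near a WT value, and the log2 fold change was -2.03 ± 0.21 (SE, limma adjusted p = 9.87e-06). Zfp993 had 3.39, 1.08 and 2.59 RPKM in KO and 12.3, 10.04 and 11.3 in WT (-1.93 ± 0.21, limma adjusted p = 1.45e-05). Zfp992, the third of these neighbours, had 2.06, 0.734 and 1.47 RPKM in KO and 6.95, 5.45 and 5.90 in WT (-1.59 ± 0.17, limma adjusted p = 1.25e-05). In all 3 genes KO replicate 1 was the highest and KO replicate 2 the lowest of its group. The other tested genes of the cluster, Zfp984 and Zfp933, were also called lower, and the cluster's median was -1.59. It was -0.80 for the 8 tested genes of the chromosome 2 cluster and -0.68 for the 8 of the chromosome 17 cluster. The 16 not placed in a cluster had -0.87, and Zfp969, which has no position, is counted among them.

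Single genes of other clusters fell about as far. Zfp970, on chromosome 2, had 2.74, 1.36 and 1.81 RPKM in KO NT and 10.2, 7.48 and 6.17 in WT NT (-1.59 ± 0.17, limma adjusted p = 1.39e-05). Zfp930, on chromosome 8, had 3.17, 1.44 and 2.91 in KO and 10.7, 8.49 and 8.80 in WT (-1.59 ± 0.18, limma adjusted p = 1.72e-05). Zfp948, the gene with the highest mean over all libraries, had 5.203, 2.37 and 4.69 in KO and 14.6, 11.01 and 11.9 in WT (-1.45 ± 0.20, limma adjusted p = 7.35e-05). These groups did not overlap in any of the 3 genes. Zfp934 (-1.43), Zfp960 (-1.15), Zfp976 (-1.06) and Zfp938 (-1.02) followed, each called. Zfp932, picked here because its protein represses ERVK elements in mouse embryonic stem cells, had a log2 fold change of -0.93 and was called lower.

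The same comparison under H2A.Z siRNA uses other libraries. There 38 of 40 genes were called lower and 0 higher, against 62.9% called, 20.2% higher and 42.7% lower, over all genes, and the median was -0.80, against -0.32 for the other Zfp genes and -0.12 for all genes. All 38 are among the 39 called with NT, and Zfp943 (-0.34 ± 0.14, limma adjusted p = 0.0523) and Zfp956 (-0.14 ± 0.10, limma adjusted p = 0.24) were not called. Every KO value lay below every WT value in 40 of 40 genes, and in 39 of 40 with NT, while 70.0% and 66.8% of all genes tested had groups that did not overlap in either direction. Zfp991 had 1.86, 1.39 and 2.31 RPKM in KO and 12.4, 9.42 and 11.6 in WT with H2A.Z siRNA (-2.09 ± 0.21, limma adjusted p = 8.27e-06). Zfp993 (-1.97), Zfp934 (-1.69), Zfp948 and Zfp992 (both -1.67), Zfp930 (-1.51), Zfp984 (-1.41), Zfp970 (-1.403) and Zfp960 (-1.39) were the next, each called. With 1 library left out, the counts ran from 37 to 39 with H2A.Z siRNA and stayed at 39 with NT. The median of all genes moved by more than 0.1 here, and with each library centred on its median 36 of 40 were still called lower.

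Most of the genes were high or low in the same libraries, within groups as well as between them. Summed over the 64 genes, KO H2A.Z siRNA libraries had 62.5, 64.3 and 75.7 RPKM, KO NT had 105.0, 57.7 and 83.0, WT H2A.Z siRNA had 186, 157 and 189, and WT NT had 234, 176 and 190.0. The highest KO library thus stayed below the lowest WT library. Replicate 1 was the highest of its group for 37 of 40 tested genes in KO NT and again for 37 of 40 in WT NT. Replicate 2 was the lowest for 34 of 40 in KO NT, for 31 of 40 in WT NT and for 34 of 40 in WT H2A.Z siRNA. These counts were not made over all genes, so whether the order is particular to the group is not known. Whole libraries of a group in this table correlated at r = 0.99 or more across genes. In both genotypes NT replicate 1 stood farther from its group than the others did, and without these libraries the counts called lower in KO than in WT were 39 with NT and 39 with H2A.Z siRNA.

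**Figure D3:**
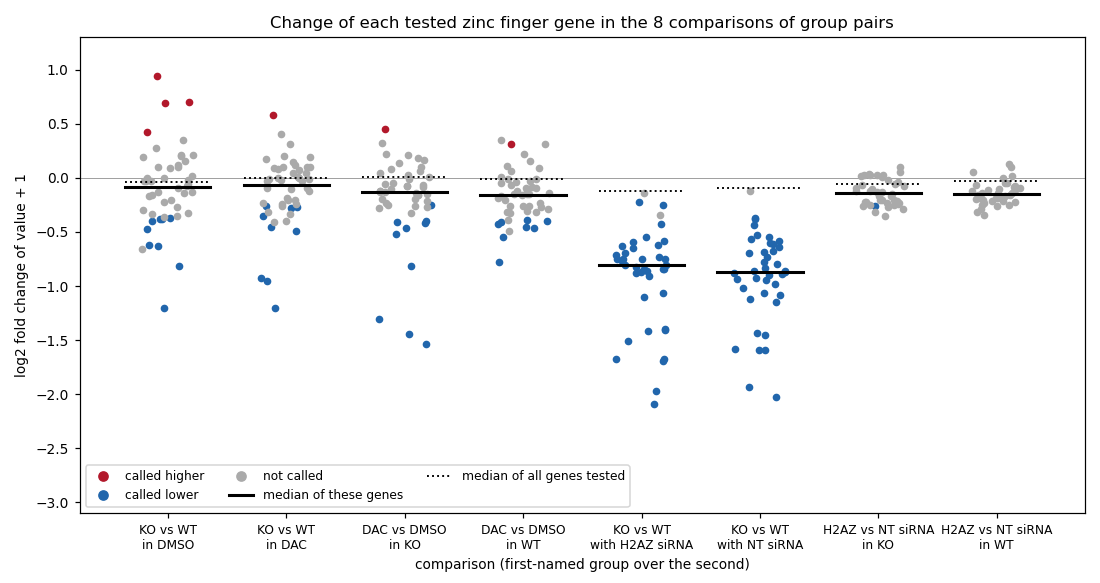
Log2 fold change of value + 1 for each tested gene (points) in 8 comparisons, the first-named group over the second, with the median of the group (solid line) and of all genes tested (dotted line). Blue points fill the columns of KO against WT in the siRNA table, at medians of -0.80 and -0.87, while the columns of H2A.Z against NT siRNA are almost all grey.

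Knock-down of H2A.Z itself left few calls in the group. In KO, 1 of 40 genes was called lower and 0 higher, against 25.5% of all genes called, 6.56% higher and 19% lower. In WT 0 of 40 were called by limma, against 15.3% of all genes, 4.88% higher and 10.4% lower. At an unadjusted limma p below 0.05 there were 2 of 40 in KO and 4 of 40 in WT, against 4798 and 3865 of all 12668 genes. With limma-voom on recovered reads, 1 gene was called in each genotype. The estimates were mostly small and negative, 31 of 40 in KO and 36 of 40 in WT, with medians of -0.14 and -0.15, against -0.06 and -0.03 for all genes. The gene called in KO was Zfp949, with 0.318, 0.309 and 0.304 RPKM under H2A.Z siRNA and 0.695, 0.496 and 0.538 under NT. Its groups did not overlap (-0.26 ± 0.09, limma adjusted p = 0.0409), which held for 39.0% of all genes tested. Its call was lost in 8 of the 12 fits that left out 1 library (limma adjusted p from 0.052 to 0.127). Those without KO NT replicates 1 or 3, WT NT replicate 3, any KO H2A.Z replicate or WT H2A.Z replicates 2 or 3 gave 0 genes. Without KO NT replicate 2, the library with the lowest summed level, 10 genes were called lower in KO. Without KO NT replicate 1, 1 gene was called in WT. Same-numbered KO libraries deviated together, and with the replicate number as a block 2 genes were called lower in KO, Zfp949 (limma adjusted p = 0.0213) and Zfp965 (-0.36, limma adjusted p = 0.0382). No gene of the group passed the test of whether the siRNA acted differently in KO and WT, where 0.00789% of all genes did. In that test 0 of 40 had an unadjusted limma p below 0.05, against 1095 of all 12668 genes.

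In the FPKM table the difference between the genotypes was of another shape. With DMSO, 4 of 48 genes were called higher and 9 lower in KO than in WT (27.1%), against 42.4% of all 16434 genes tested (19.6% higher and 22.9% lower) and against 36 higher and 68 lower of the 248 other Zfp genes. With no filter, 6 of the 64 were called higher and 7 lower. The median of the 48 was -0.08, against -0.12 for the other Zfp genes and -0.04 for all genes. Zfp970 had the largest fall, with 1.67 and 1.69 FPKM in KO DMSO and 4.94 and 5.43 in WT DMSO (-1.20 ± 0.12, limma adjusted p = 7.43e-05). Zfp938 had 2.65 and 3.32 in KO and 6.10 and 5.82 in WT (-0.81 ± 0.10, limma adjusted p = 0.000183). Both had groups far apart, as did Zfp948, with 7.47 and 7.38 in KO and 10.7 and 9.63 in WT (-0.40 ± 0.08, limma adjusted p = 0.00358). The chromosome 2 cluster gave 4 of the 9 genes called lower (Zfp970, Zfp966, Zfp965 and Zfp973), with a cluster median of -0.36.

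The genes that were higher in KO DMSO lay on chromosomes 4 and 17. Zfp992 had 4.63 and 4.93 FPKM in KO and 2.07 and 1.93 in WT (0.94 ± 0.12, limma adjusted p = 0.000286). Zfp983, on chromosome 17, had 1.29 and 1.33 in KO and 0.283 and 0.597 in WT (0.69 ± 0.14, limma adjusted p = 0.00337), and Zfp982 had 1.05 and 1.47 in KO and 0.329 and 0.448 in WT (0.70 ± 0.21, limma adjusted p = 0.0279). Both passed the filter only through KO libraries, so they could only be higher. Zfp945, the last, had a log2 fold change of 0.42. Zfp991 (-0.17 ± 0.12, limma adjusted p = 0.293) and Zfp993 (0.20 ± 0.18, limma adjusted p = 0.423), the genes with the largest falls under siRNA, were not called here.

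The count in DMSO rests on 2 libraries a group. It was 8 without KO DMSO replicate 1 and 8 without replicate 2, and 5 without WT DMSO replicate 1 and 7 without replicate 2. Zfp970, Zfp938, Zfp948, Zfp992 and Zfp983 stayed called in each of these. Zfp945, Zfp949 and Zfp966 lost their calls without any one of the 4 DMSO libraries, at limma adjusted p from 0.0575 to 0.11, from 0.0613 to 0.156 and from 0.116 to 0.152, and Zfp966 also without KO DAC replicate 2 (limma adjusted p = 0.0633). Zfp935 and Zfp982 lost them without KO DMSO replicate 2 or either WT library, Zfp954 without KO DMSO replicate 1 or either WT library, Zfp973 without replicate 1 of either genotype, and Zfp965 without WT DMSO replicate 1 (limma adjusted p = 0.0503). Mesothelial markers, at 925 to 953 FPKM in KO DMSO and 10.1 to 12.1 in WT DMSO, move with this comparison, as do the fibroblast markers and the sex of the cells, and their part in it was not tested.

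With DAC, 1 of 48 genes was called higher and 9 lower in KO than in WT (20.8%), against 22.7% of all genes (11.1% higher and 11.6% lower), and 15 and 15 of the 248 other Zfp genes. The median was -0.06, against 0.00 for all genes. Zfp991 had 2.32, 2.18 and 2.12 FPKM in KO DAC and 6.66, 5.63 and 6.86 in WT DAC (-1.20 ± 0.10, limma adjusted p = 6.72e-05). Zfp993 had 3.57, 2.71 and 2.68 in KO and 6.67, 5.35 and 8.35 in WT (-0.95 ± 0.15, limma adjusted p = 0.0023), and Zfp970 had 1.86, 1.21 and 1.39 in KO and 3.49, 3.71 and 3.90 in WT (-0.93 ± 0.10, limma adjusted p = 0.00035). The KO and WT values of each did not overlap, which held for 36.9% of all genes tested. Zfp951, at 0.502, 0.318 and 0.378 in KO and 1.11, 0.892 and 0.904 in WT, followed (-0.49 ± 0.09, limma adjusted p = 0.00644), and passed the filter through WT libraries alone. These 4 stayed called with any single library left out. Zfp984, a neighbour of Zfp991 in the chromosome 4 cluster, was the gene called higher, with 11.6, 8.20 and 8.36 in KO and 4.86, 5.74 and 7.27 in WT (0.58 ± 0.15, limma adjusted p = 0.0281).

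The remaining calls with DAC were near the threshold. Zfp930, Zfp992, Zfp938, Zfp948 and Zfp965 had log2 fold changes of -0.45 to -0.26 and, like Zfp984, each lost its call in at least 3 of the 10 fits that left out 1 library. The count was 6 without KO DAC replicate 2 or without replicate 3, and 4 without WT DAC replicate 2. It was also 6 when only the KO DAC and WT DAC libraries were fitted. In KO DAC replicate 1, 37 of the 48 genes were at the group's highest value, a count that was not made over all genes. Without this library and WT DAC replicate 3, which stand farther from their groups than the others do, 8 genes were called. The mesothelial markers, at 111 to 129 FPKM in KO DAC and 42.6 to 57.0 in WT DAC, and the sex of the cells move with this comparison, and their part in it was not tested. Of the 9 genes lower in DMSO and the 9 lower in DAC, 4 were in both lists (Zfp938, Zfp948, Zfp965 and Zfp970).

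**Figure D4:**
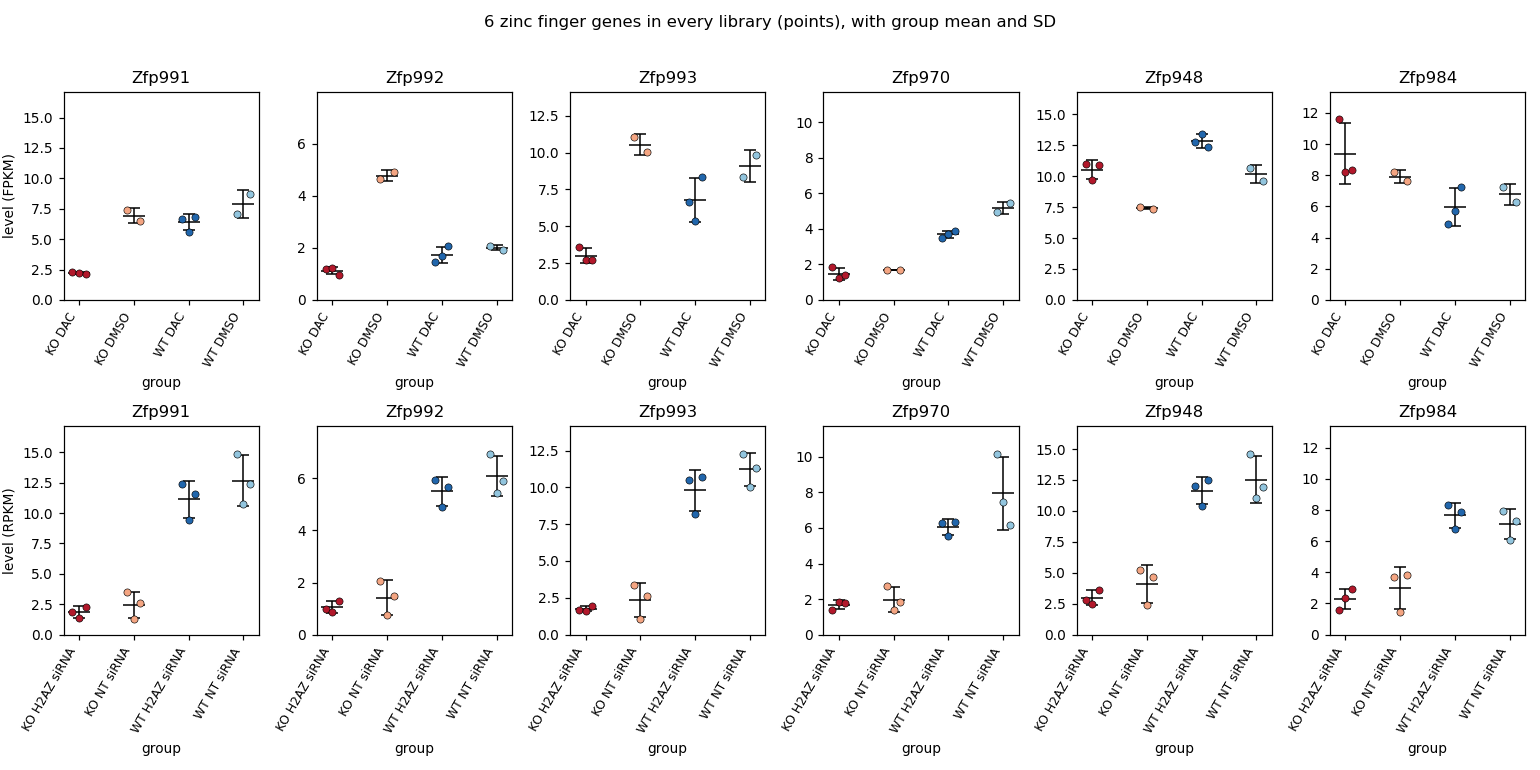
Level of 6 genes in every library (points) with the group mean and SD, in FPKM for the DAC and DMSO libraries (upper row) and RPKM for the siRNA libraries (lower row). Zfp991, Zfp992 and Zfp993 stand low in KO DAC and in both KO siRNA groups but not in KO DMSO, while Zfp970 is low in all 4 KO groups. Among the FPKM groups Zfp992 is also low in WT DAC (mean 1.73 FPKM) and WT DMSO (2.00), and high in KO DMSO alone (4.78). In the siRNA libraries it is high in WT NT (mean 6.10 RPKM) and WT H2A.Z siRNA (5.51).

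With decitabine a subset of the genes was lower in each genotype. In KO, 1 of 48 genes was called higher and 10 lower than with DMSO (22.9%), against 45.2% of all genes (23.7% higher and 21.6% lower), and 32 higher and 62 lower of the 248 other Zfp genes. In WT, 1 was called higher and 8 lower (18.8%), against 28.3% of all genes (14.5% higher and 13.8% lower), and 13 and 44 of the other Zfp genes. The medians were -0.13 in KO and -0.15 in WT, where all genes had 0.01 and -0.01. Of the genes called lower, 4 were in both lists, Zfp950, Zfp964, Zfp965 and Zfp973, which is 4 of 10 in KO and 4 of 8 in WT. These comparisons share their libraries with those of KO against WT above.

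The falls in KO were led by the same neighbours on chromosome 4. Zfp993 had 3.57, 2.71 and 2.68 FPKM in KO DAC and 11.04 and 10.03 in KO DMSO (-1.54 ± 0.16, limma adjusted p = 0.000101). Zfp992 had 1.201, 1.22 and 0.965 in KO DAC and 4.63 and 4.93 in KO DMSO (-1.44 ± 0.11, limma adjusted p = 1.25e-05). Zfp991 had 2.32, 2.18 and 2.12 in KO DAC and 7.37 and 6.48 in KO DMSO (-1.30 ± 0.11, limma adjusted p = 2.02e-05). In WT the same 3 genes had log2 fold changes of -0.39, -0.14 and -0.27, with limma adjusted p = 0.118, 0.382 and 0.0968. The test of the difference between the genotypes, the change with DAC in KO minus that in WT, gave -1.15 ± 0.23 for Zfp993 (limma adjusted p = 0.00767), -1.30 ± 0.16 for Zfp992 (limma adjusted p = 0.000457) and -1.03 ± 0.15 for Zfp991 (limma adjusted p = 0.00143). These calls held with any single library left out.

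Zfp983 also passed that test, at -0.81 ± 0.17 (limma adjusted p = 0.0101), with 0.753, 0.717 and 0.568 FPKM in KO DAC and 1.29 and 1.33 in KO DMSO, and 0.737, 0.982 and 0.767 in WT DAC and 0.283 and 0.597 in WT DMSO. It reached 1 FPKM in KO DMSO alone, so the filter favoured a difference in this direction. Zfp938 passed it in the other direction (0.53 ± 0.12, limma adjusted p = 0.0145), but not without KO DMSO replicate 1 or WT DMSO replicate 1 (limma adjusted p = 0.0565 and 0.0596). In all, 5 of 48 genes passed (1 higher and 4 lower), against 24.1% of all genes (12.4% higher and 11.7% lower). The summed mesothelial markers were at 111 to 129 FPKM in KO DAC and 925 to 953 in KO DMSO, and Xist, the RNA of the inactive X chromosome, at 28.5 to 44.4 and 0.579 to 0.923. These values move with the fall of Zfp991 to Zfp993, and their part in it was not tested.

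Outside the chromosome 4 cluster, Zfp964 and Zfp965 were called lower in both genotypes. Zfp964, on chromosome 8, had 0.804, 0.610 and 0.689 FPKM in KO DAC and 1.28 and 1.23 in KO DMSO (-0.41 ± 0.10, limma adjusted p = 0.0126). In WT it had 0.546, 0.750 and 0.661 with DAC and 1.64 and 2.02 with DMSO (-0.77 ± 0.10, limma adjusted p = 0.000887). It reached 1 FPKM in DMSO libraries alone, so the filter allowed only a fall with DAC. It rests on 25 to 90 reads a library, and in KO its call was lost without either DMSO library. Zfp965 had 4.13, 4.03 and 3.53 in KO DAC and 5.54 and 5.56 in KO DMSO (-0.42 ± 0.08, limma adjusted p = 0.00215), and 4.98, 4.74 and 4.86 in WT DAC and 7.98 and 7.12 in WT DMSO (-0.54 ± 0.08, limma adjusted p = 0.00107). Groups did not overlap in either genotype, which held for 64.6% of all genes tested in KO and 53.7% in WT. Zfp951, which lies in no cluster, was called lower in KO (-0.52). In the chromosome 4 cluster Zfp982 was called lower in KO as well (-0.81), but it reached 1 FPKM in KO DMSO alone, so it could only fall, and the call was lost without KO DMSO replicate 2 (limma adjusted p = 0.0706).

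Zfp948 went the other way in both genotypes and was the only gene called higher with DAC among the 48 tested. With no filter Zfp940 and Zfp941, both under 1 FPKM, were called higher in KO too (limma adjusted p = 0.0256 and 0.0036). It had 11.0, 9.67 and 10.9 FPKM in KO DAC and 7.47 and 7.38 in KO DMSO (0.45 ± 0.07, limma adjusted p = 0.00112), and 12.8, 13.4 and 12.4 in WT DAC and 10.7 and 9.63 in WT DMSO (0.31 ± 0.07, limma adjusted p = 0.0128). In WT the call was lost without WT DMSO replicate 2 (limma adjusted p = 0.119). Of the 8 genes lower in WT, Zfp931, Zfp970, Zfp938 and Zfp975 each lost the call without WT DMSO replicate 1, which brought the count in WT down to 5. Fibroblast markers, at 2168 to 2301 FPKM in WT DAC and 3275 to 3397 in WT DMSO, move with the comparison in WT. So do the mesothelial markers, at 42.6 to 57.0 in WT DAC and 10.1 to 12.1 in WT DMSO. The part of these markers in it was not tested. Of 31 tested genes with CCAAT in the promoter window, 7 were called lower (22.6%) and 0 higher with DAC in KO, and 8 lower (25.8%) and 0 higher in WT, where 21.6% and 13.8% of all genes were lower. Of the 11 without it, 1 was called lower and 1 higher in KO, and 0 lower and 1 higher (Zfp948) in WT. Tested genes with no matched window are in neither class, among them Zfp991 and Zfp992, both called lower with DAC in KO. The Zfp948 window lies inside the gene as placed.

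The genes were also split by the ratio of observed to expected CpG, at cuts of 0.224 and 0.616 that divide all promoters into 3 equal classes. The median log2 fold change with DAC was -0.20 in KO and -0.39 in WT for the 7 tested genes below the lower cut. It was -0.13 in KO and -0.11 in WT for the 26 between the cuts, and -0.06 and -0.15 for the 9 above them. The genes with the lowest ratio thus had the lowest medians, in groups of unequal size and with no test. Of these 7, Zfp931, Zfp968, Zfp970, Zfp971 and Zfp973 lie in the chromosome 2 cluster. That cluster had medians with DAC of -0.234 in KO and -0.325 in WT. Zfp991 and Zfp992 have no matched window and are in no class.

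**Figure D5:**
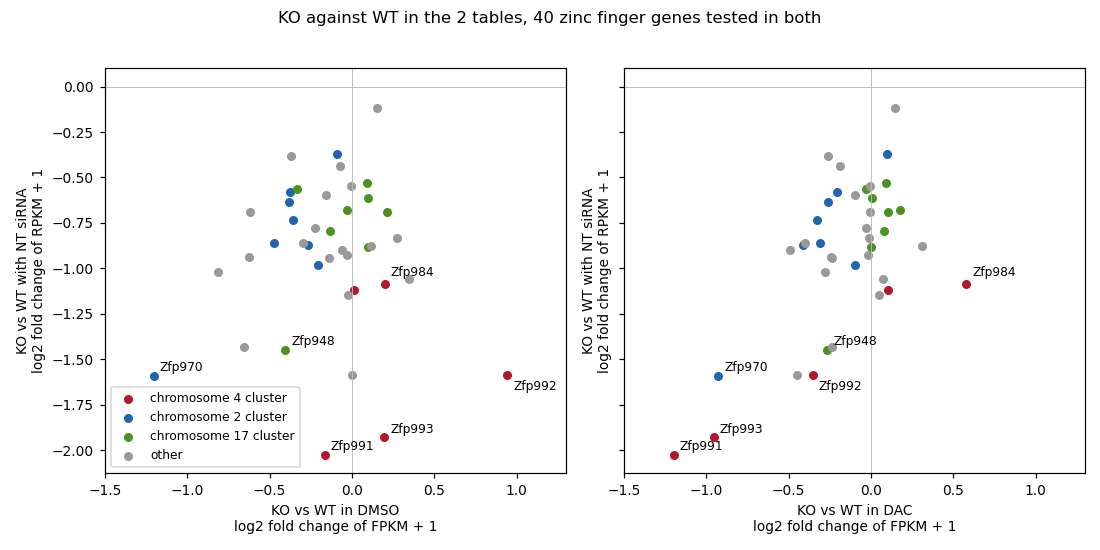
Log2 fold change of KO over WT with NT siRNA (vertical axis) against that in DMSO (left) and in DAC (right), for the 40 genes tested in both tables, coloured by cluster. Zfp970 is at or below -0.93 on every axis, while Zfp991, Zfp992 and Zfp993 lie far below 0 with NT siRNA but at -0.17, 0.94 and 0.20 in DMSO and at -1.20, -0.355 and -0.95 in DAC.

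The tables were normalized apart, so the genotype differences are set side by side without a test. Among the 40 genes tested in both, KO against WT gave 1 higher and 9 lower in DMSO, 1 and 9 in DAC, 0 and 39 with NT siRNA and 0 and 38 with H2A.Z siRNA. Across genes the log2 fold changes with NT siRNA had r = 0.62 with those in DAC and r = 0.00 with those in DMSO. Zfp992 changed sign between the tables, at 0.94 in DMSO and -1.59 with NT siRNA, and Zfp984 likewise, at 0.58 in DAC and -1.08 with NT siRNA. Zfp970, Zfp938, Zfp948 and Zfp965 were called lower in KO in all 4 comparisons, and Zfp965 was in addition lower with DAC in both genotypes, the gene with the most calls in 1 direction (6). The culture conditions that separate DMSO from NT siRNA are not given beyond these names.

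By likeness of pattern over the 4 group means of the FPKM table, the tested genes nearest to Zfp993 were Rcan2, Iqcg and Muc6 (r = 1.00 each), and in the RPKM table those nearest to Zfp991 were Fam120c, Lmbr1 and Pex2 (r = 1.00 each). With 4 points and so many genes such values are common. Within the group, Zfp991 was nearest to Zfp993 in FPKM (r = 0.96), and Zfp992 and Zfp993 were nearest to Zfp991 in RPKM (r = 1.00).

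Genes that act with KRAB zinc finger proteins were read from a list of corepressors and silencing factors, 31 of them tested in each table. With NT siRNA 7 were called higher and 17 lower in KO than in WT, and with H2A.Z siRNA 7 and 15. The 7 called higher are 22.6% of the list in each, against 23.7% and 20.2% of all genes, and those called lower are 54.8% and 48.4%, against 40.4% and 42.7%. Trim28 itself was among those higher, at 70.0 ± 2.37 RPKM in KO and 52.9 ± 2.85 in WT with NT (SD, n = 3 each; log2 fold change 0.40, limma adjusted p = 1.41e-05). Among those lower with NT were Fam208a (-0.83) and Mphosph8 (-0.74), which encode subunits of the HUSH silencing complex, and Zfp809 (-0.82), whose protein binds retroviral primer binding sites. Setdb1 was not called in the siRNA table. In DMSO 10 were higher and 3 lower in KO, and in DAC 10 were higher and 0 lower (32.3% higher in each, against 19.6% and 11.1% of all genes), with Setdb1 lower in DMSO (-0.30) and Trim28 higher in DAC (0.39). Zfp57, the imprint-binding member of the wider family, was higher in KO, with log2 fold changes of 1.35 in DMSO and 0.25 in DAC. DAC against DMSO gave 6 higher and 7 lower in KO (19.4% and 22.6%, against 23.7% and 21.6% of all genes) and 4 and 5 in WT (12.9% and 16.1%, against 14.5% and 13.8%), among them Dnmt3a, a DNA methyltransferase gene, at -0.87 in KO and -0.56 in WT. H2A.Z siRNA against NT gave 0 higher and 7 lower in KO (22.6% lower, against 19% of all genes) and 0 and 4 in WT (12.9%, against 10.4%), with Cbx1, which encodes HP1 beta, at -0.63 and -0.70.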

How the data were processed

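RNA was measured in 22 libraries of MEFs. The submitters' processing notes list mm10 as the build and name STAR, deepTools and Bowtie2. No source used here gives versions, the read counter, its strand setting or the annotation. The 31 CUT&Tag samples were not analysed here. The deposited tables hold FPKM (DAC and DMSO) and RPKM (siRNA) computed by the authors, each with 43432 entries. Of symbols listed repeatedly, the entry with the highest mean was kept. Whole reads were recovered from the values for 30077 of 30078 genes above 0 in the FPKM table and all 32935 in the RPKM table (within 0.01), which gave the depth per library. Depth limits low genes: 1 read in a gene of 1 kb equals 0.0271 to 0.0364 FPKM.

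Each table was fitted once, over its 4 groups, on log2(value + 1) with limma 3.58.1 in R 4.3.3, with an intensity trend, for genes at 1 or more in at least 2 (FPKM) or 3 (RPKM) libraries. A fold change on this scale understates the change of low genes. P-values were adjusted over all genes tested (Benjamini-Hochberg), with calls below 0.05. The procedure was tested on simulated data. Replicate numbers were checked for pairing by the correlation of deviations from group means. They paired KO with H2A.Z siRNA and KO with NT (r from 0.14 to 0.27 over 3 pairs). This pairing was seen in the data and is not stated in the labels. KO NT and WT NT also had a positive r in all 3 same-numbered pairs (0.02 to 0.32). Alternatives were no filter, a filter at 5, a pseudocount of 0.1, centring on the median, the replicate block, a fit of the compared libraries alone, limma-voom on recovered reads, leaving out the libraries that stand apart, and leaving out each library.

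Named genes are up to 12 called per direction and comparison by size of change, the 5 highest and 5 lowest of each table, those called in 1 direction in at least 3 comparisons, and the 3 genes nearest in pattern to the largest change. The genes, lists and rules were chosen with earlier results of these data known. Promoter and position data are from RefSeq (GRCm38.p6). Protein sequences were not used here. Other steps used Python 3.11.15, numpy 2.4.6, pandas 2.3.3, scipy 1.17.1 and matplotlib 3.10.9.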

Additional observations from a re-analysis of the deposited data

Results flagged for a closer look

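The change with DAC differed between the genotypes, by the interaction term of the limma fit, in 5 genes. It was lower in KO than in WT by -1.299 (log2) for Zfp992, -1.151 for Zfp993, -1.033 for Zfp991 and -0.811 for Zfp983, and higher by 0.534 for Zfp938. No group had the 4 samples needed to single out an outlying library.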

How the results depend on the processing

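No named call changed direction under any alternative run. Of the single-gene results recomputed, 1197 kept their call and 137 kept their direction but missed the threshold. A filter at 5 left 13 genes of the group in the FPKM table and 16 in the RPKM table. The counts called were then 6 for KO against WT in DMSO, 4 and 5 for DAC in WT and KO, and 3 for the interaction with DAC. They were 16 and 16 of 16 for KO against WT with NT and H2A.Z siRNA, and 0 for H2A.Z siRNA in KO. The highest KO values of the group in RPKM were 5.258 (Zfp965) and 5.203 (Zfp948), both in KO NT replicate 1. All 16 thus passed this filter through WT libraries alone, which favoured a lower value in KO. For KO against WT in DAC the count was 6 with the replicate block and 6 when the compared libraries were fitted alone. For H2A.Z siRNA in WT it was 1 without a filter, 1 with median centring, 1 with the replicate block and 1 by limma-voom. For H2A.Z siRNA in KO it was 2 with the block and 0 without a filter, with median centring, with the compared libraries alone and without the libraries that stand apart. With each library left out in turn the counts ran from 5 to 14 (KO against WT in DMSO), 4 to 9 (in DAC), 5 to 10 (DAC in WT), 8 to 13 (DAC in KO), 4 to 6 (interaction with DAC), 39 to 39 and 37 to 39 (KO against WT with NT and H2A.Z siRNA), 0 to 1 and 0 to 10 (H2A.Z siRNA in WT and KO) and 0 to 0 (interaction with H2A.Z siRNA). The causes of these shifts were not tested, and some of these fits also hold fewer genes or samples. Same-numbered libraries did not all deviate together in the other comparisons. Over all such pairs r ran from -0.23 to 0.13 in FPKM and from -0.10 to 0.32 in RPKM. KO NT and WT NT had a positive r in all 3 of their pairs (0.02 to 0.32). The labels give these libraries only a shared number. Depth limits the lowest genes, such as Zfp964 with 25 to 90 reads a library.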
